A study of Homo sapiens with 16 samples.

Results

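The genes described here encode isozymes of 4 glycolytic enzymes, the hexokinases HK1, HK2 and HKDC1, the phosphofructokinases PFKL, PFKM and PFKP, the aldolases ALDOA and ALDOC, and the pyruvate kinase PKLR. They are 9 of the 26258 genes in the deposited table and were chosen by name, with earlier results of these libraries known, so that their levels and shares are given as a description and without a test. The question was how much of each enzyme's mRNA came from the form typical of hepatocytes and how much from the forms of other tissues in Sorafenib-sensitive and Sorafenib-resistant cells. All 9 passed the filter on low values, which kept 15019 genes with at least 1 CPM (a gene's reads scaled to a common library total) in at least 2 libraries. PKLR passed through the DMSO libraries and PFKP mainly through the resistant ones, so that passing says nothing on the other groups.

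Glycolysis starts with the phosphorylation of glucose by hexokinases. HK1 is the form of most tissues and HK2 the form of insulin-sensitive tissues and of many tumors, and HKDC1 is a further member of the family whose gene lies beside HK1. Phosphofructokinase has liver (PFKL), muscle (PFKM) and platelet (PFKP) forms, which assemble into tetramers. The liver form of pyruvate kinase (PKLR) belongs to the differentiated hepatocyte, while aldolase A (ALDOA) and PKM are widespread and aldolase C (ALDOC) is known from the brain.

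Poly(A)-selected RNA of the human hepatocellular carcinoma lines Huh7 and Hep3B was sequenced in 16 libraries, in 8 groups of 2 replicates. Each line contributed untreated parental cells, untreated cells titled DMSO, IR cells, selected under a rising dose of Sorafenib, and CR cells, selected under a dose that was high throughout. The treatment label of all IR and CR libraries, in both lines, is 7 μM Sorafenib, so that exposure to the drug and resistance to it cannot be told apart. Each IR or CR population is 1 selected population per line, and the labels do not say whether replicates came from separate cultures, so the errors measure only the spread between these libraries.

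Recovered totals ranged from 46613302 to 76860251 reads per library, at which 1 read corresponds to between 0.013 and 0.021 CPM. The labelled cell type was checked on 10 hepatocyte markers. Their summed level was 10770 to 24198 CPM in the parental libraries of both lines, 23031 to 41241 CPM in the DMSO libraries, 112 to 2791 CPM in Huh7-IR and Huh7-CR, and 2302 to 10963 CPM in Hep3B-IR and Hep3B-CR, and the apolipoproteins APOA1 and APOA2 were under 1 CPM in all 4 resistant Huh7 libraries. The hepatocyte sum does not stand for each marker. SERPINA1 measured 392 and 547 CPM in Hep3B parental and 1161 and 2052 CPM in Hep3B-IR libraries. TTR, TF and HNF4A overlapped between Hep3B-IR and Hep3B parental libraries, and the other hepatocyte markers were lower in Hep3B-IR. The sum of 5 fibroblast markers moved opposite to the hepatocyte sum in Huh7. It went from 7.09 and 7.51 CPM in Huh7 parental cells to 281 to 541 CPM in the resistant Huh7 libraries, with DCN under 1 CPM in Huh7-IR. In Hep3B this sum went from 4.20 and 6.02 CPM in parental to 12.8 to 71.0 CPM in resistant libraries, where COL3A1 and DCN were under 1 CPM. The Hep3B DMSO sums, 14.5 and 12.5 CPM, overlapped those of Hep3B-IR. Most of the resistant Hep3B sum was COL1A1, at 0.16 and 0.04 CPM in parental and 11.5 to 66.2 CPM in resistant libraries. COL1A2 reached at most 1.87 CPM there. PDGFRB went the other way in Hep3B-IR, below its parental 3.90 and 5.67 CPM, and overlapped them in Hep3B-CR. Over the series, 3 endothelial markers summed to at most 6.35 CPM, 3 muscle markers to 7.63 to 63.4 CPM and 3 leukocyte markers to 10.6 to 107 CPM. The part of these markers in the values below was not tested, and in bulk RNA fewer cells of a type and less RNA per cell cannot be told apart.

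The promoters of 2 members are shown because HKDC1 is a hexokinase whose share was larger in the resistant cells of both lines and ALDOC is one of the members that were highest in the DMSO libraries, and because RefSeq lists 1 start site for each. The sequences are from RefSeq on GRCh38.p14, a later build than that of the deposited counts, and run 5′ to 3′ on the gene's strand from 250 bases before the start site to 50 bases after it. HKDC1 lies on the plus strand at chr10:69220082-69220381 and ALDOC on the minus strand at chr17:28576846-28577145. Capitals mark the motifs ACGTG and GCGTG on either strand, the core of the hypoxia response element.

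HKDC1: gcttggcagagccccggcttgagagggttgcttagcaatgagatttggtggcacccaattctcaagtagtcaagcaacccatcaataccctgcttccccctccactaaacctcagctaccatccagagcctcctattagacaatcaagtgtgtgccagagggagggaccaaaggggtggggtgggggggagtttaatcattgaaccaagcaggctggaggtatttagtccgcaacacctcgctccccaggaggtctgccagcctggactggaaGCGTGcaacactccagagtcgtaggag

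ALDOC: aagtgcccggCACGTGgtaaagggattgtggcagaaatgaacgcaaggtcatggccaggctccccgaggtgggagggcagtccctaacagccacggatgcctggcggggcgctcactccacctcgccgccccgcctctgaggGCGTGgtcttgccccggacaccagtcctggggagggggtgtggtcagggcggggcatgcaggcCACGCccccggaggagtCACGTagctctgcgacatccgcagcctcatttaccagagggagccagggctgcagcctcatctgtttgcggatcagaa

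The HKDC1 window held 1 match, GCGTG at position 23 counted from the start site. The ALDOC window held 5 matches, 3 of ACGTG and 2 of GCGTG, of which a pair overlapped in CACGTG, the letters of an E-box, read from both strands. Over the 35116 windows of the RefSeq table, 21.4% held ACGTG, 36.5% held GCGTG and 48.4% held either. All 9 members were found in the table, with 28 windows, of which 15 (53.6%) held a match. HK1 and PFKM each had 7 listed start sites, with a match at 2 of the 7, and PFKP had 4, with a match at 2. Which of these starts the cells used was not measured here, and a match describes the letters only.

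Among the hexokinases, HKDC1 was high in all 8 resistant libraries, HK1 was high only in the resistant libraries of Huh7, and the libraries of HK2 overlapped between resistant and parental cells in both lines. HKDC1 (chromosome 10, 70980088 to 71027308, GRCh37) measured 4.80 and 2.08 CPM in Huh7 parental, 1.30 and 4.28 CPM in Huh7 DMSO, 111 and 122 CPM in Huh7-IR and 95.3 and 96.2 CPM in Huh7-CR libraries. The Hep3B values were 18.3 and 11.4 CPM in parental, 13.8 and 24.6 CPM in DMSO, 411 and 390 CPM in IR and 688 and 673 CPM in CR libraries. The resistant libraries of each line thus all lay above its parental and DMSO libraries. Against parental cells the log2 fold change of HKDC1 was 4.80 and 4.52 in IR and CR cells of Huh7 and 4.69 and 5.46 in those of Hep3B, each with a standard error (SE) of 0.38 on the log2(CPM + 1) scale. By group mean the order was CR and then IR cells of Hep3B, IR and then CR cells of Huh7, Hep3B DMSO, Hep3B parental, Huh7 parental and Huh7 DMSO, and the libraries overlapped between Hep3B DMSO and Hep3B parental and between Huh7 parental and Huh7 DMSO.

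HK1 (chromosome 10, 71029740 to 71161640), the hexokinase of most tissues, measured 2.82 and 1.15 CPM in Huh7 parental, 0.90 and 1.72 CPM in Huh7 DMSO, 128 and 120 CPM in Huh7-IR and 76.1 and 78.5 CPM in Huh7-CR libraries. Its log2 fold change was 5.45 in Huh7-IR and 4.77 in Huh7-CR, with an SE of 0.24. In Hep3B the gene was barely detected in any group. It had 1 and 2 reads in parental, 3 and 0 reads in DMSO, 19 and 11 reads in IR and 14 and 11 reads in CR libraries. The resistant Hep3B libraries thus lay above the others, at no more than 0.25 CPM and below the Huh7 parental level.

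HK2 (chromosome 2, 75061254 to 75120486), the form of many tumors, measured 131 and 130 CPM in Huh7 parental, 144 and 148 CPM in DMSO, 99.2 and 123 CPM in IR and 147 and 154 CPM in CR libraries. Hep3B cells had 217 and 321 CPM in parental, 261 and 327 CPM in DMSO, 182 and 216 CPM in IR and 168 and 258 CPM in CR libraries. The 4 resistant libraries overlapped the parental ones in both lines, with log2 fold changes of -0.24 and 0.20 in IR and CR cells of Huh7 and -0.41 and -0.34 in those of Hep3B and an SE of 0.22. HK3, the hexokinase of leukocytes, had at most 4 reads in any library.

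**Figure D1:**
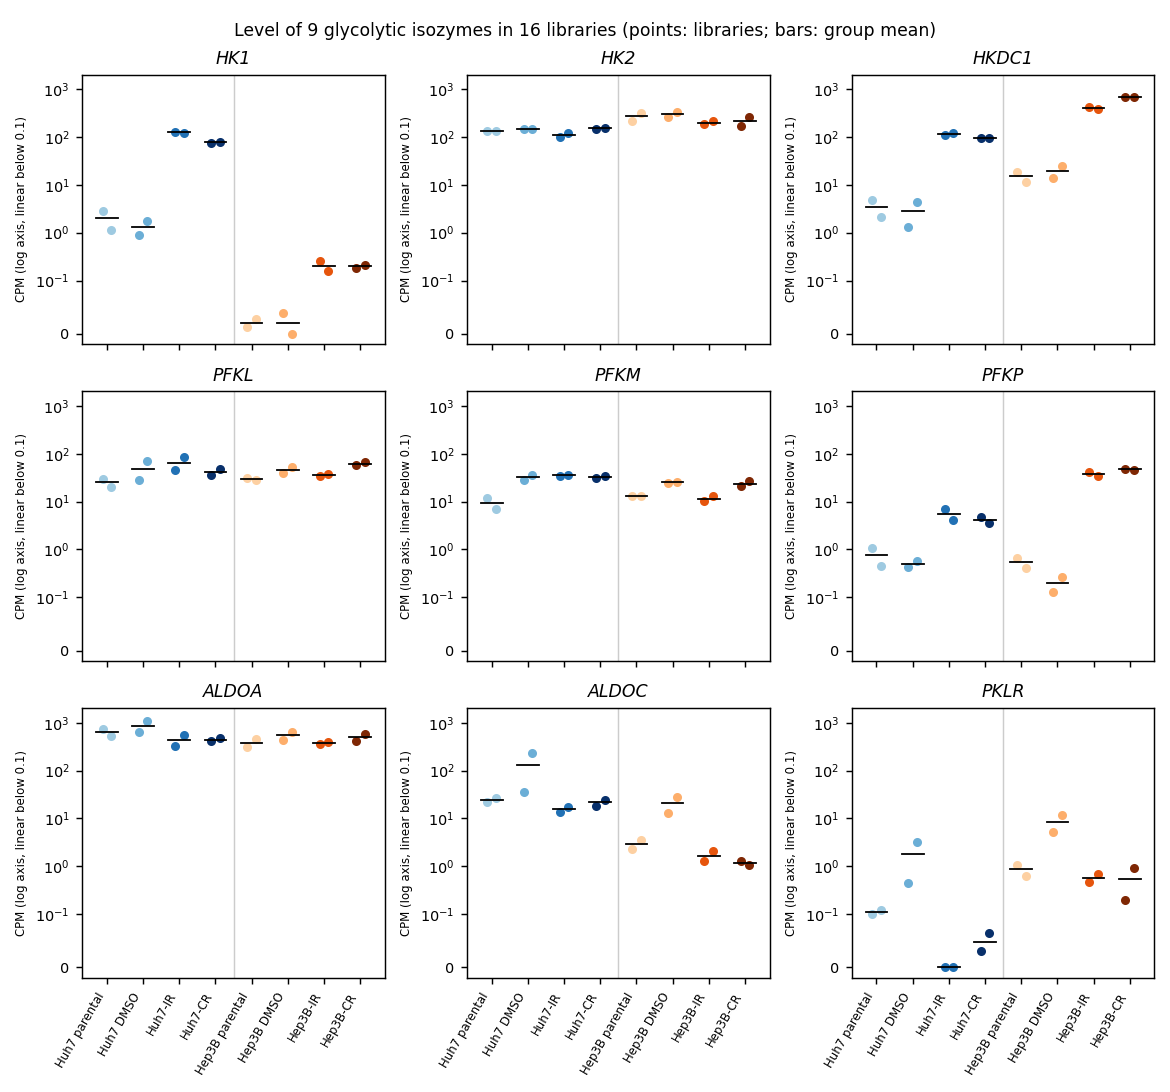
Levels of the 9 isozymes in CPM (vertical axis, logarithmic above 0.1 and linear below) in the 8 groups (horizontal axis), where points are libraries and bars are group means. HKDC1 and PFKP are high in the resistant libraries of both lines, HK1 in those of Huh7, and ALDOC and PKLR are highest in the DMSO libraries.

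Shares within an enzyme were computed over the isozymes named here, from CPM per kb of exon, so that a longer mRNA does not count for more, and they do not depend on how libraries are scaled against each other. In Huh7 parental libraries HK2 made up 93.5% and 97.1% of hexokinase mRNA, HKDC1 4.81% and 2.18%, and HK1 1.74% and 0.74%. In Huh7-IR the shares were 27.1% and 30.8% for HK2, 42.7% and 43.1% for HKDC1, and 30.2% and 26.0% for HK1. In Huh7-CR HK2 made up 42.4% and 43.2%, HKDC1 38.6% and 37.9%, and HK1 18.9% and 19.0%. In resistant Huh7 cells the hexokinase mRNA was therefore spread over 3 genes. Per kb of exon, HKDC1 was the most abundant in IR libraries and HK2 in CR libraries, but the order depended on the length used. Without length correction the Huh7-IR means were 35.4% for HK1, 33.2% for HKDC1 and 31.4% for HK2. With the longest coding transcript HKDC1 and HK1 were at 38.6% and 37.6% in Huh7-IR, and HK2 and HKDC1 at 37.0% and 36.3% in Huh7-CR.

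In Hep3B parental libraries HK2 made up 89.4% and 95.2% and HKDC1 10.6% and 4.76%. HKDC1 rose to 76.0% and 71.6% in Hep3B-IR and to 85.1% and 78.5% in Hep3B-CR, where HK2 was 24.0%, 28.3%, 14.9% and 21.5% in the same order, and HK1 stayed under 0.03%. The DMSO libraries resembled the parental ones, with HK2 at 95.1% and 98.2% in Huh7 and 90.5% and 93.1% in Hep3B.

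HK2 mRNA stood at 0.85 and 1.15 times the parental level in IR and CR cells of Huh7 and at 0.74 and 0.79 times in those of Hep3B. The change in shares went with a larger sum. The summed level of the hexokinases was 23.1 ± 0.76 CPM per kb (SD, n = 2) in Huh7 parental, 25.5 ± 1.14 in Huh7 DMSO, 64.5 ± 3.85 in IR and 59.3 ± 1.24 in CR cells of that line, which is 2.79 and 2.56 times the parental level for IR and CR. In Hep3B it was 48.9 ± 11.2 in parental, 54.2 ± 9.63 in DMSO, 128 ± 0.60 in IR and 197 ± 8.13 in CR cells, or 2.63 and 4.03 times the parental level. The libraries of resistant and sensitive cells did not overlap in either line.

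**Figure D2:**
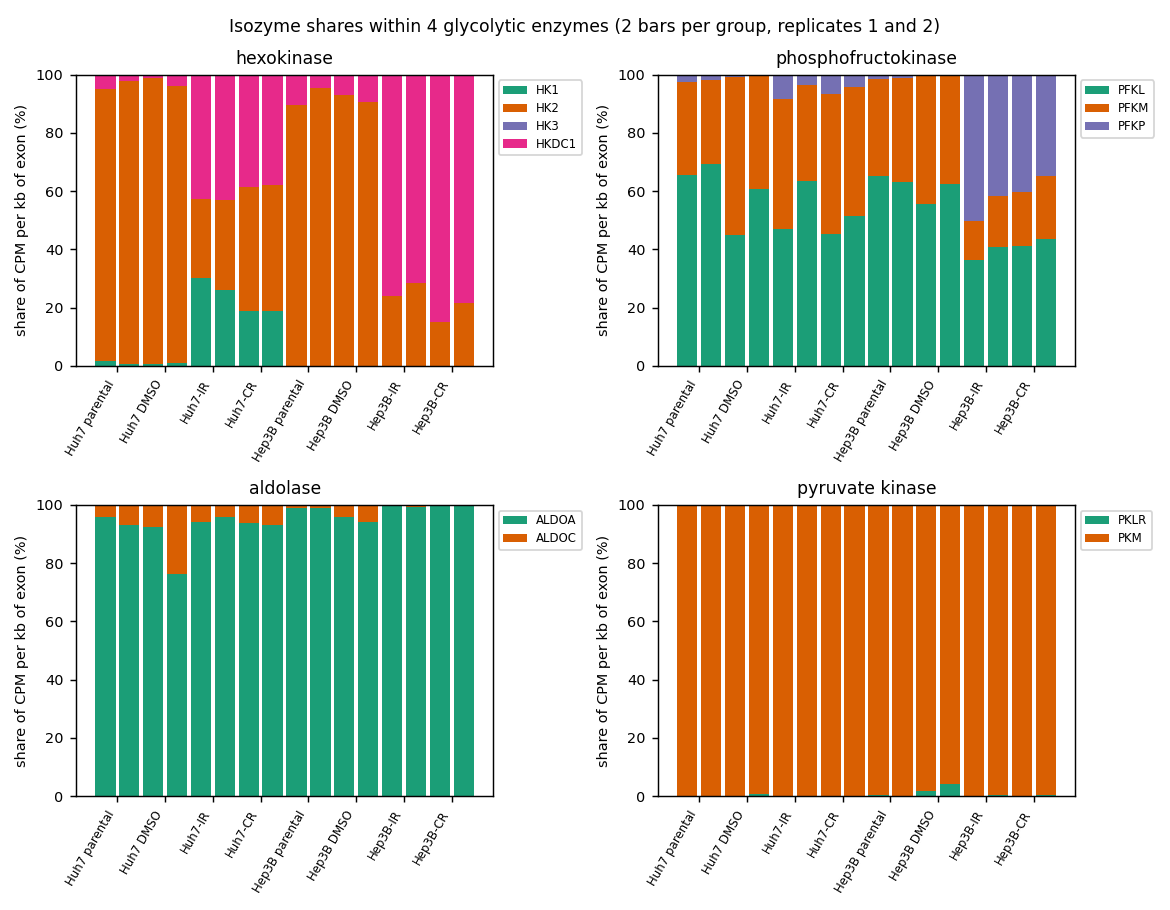
Share of each isozyme in the CPM per kb of exon of its enzyme (vertical axis, percent) in 16 libraries, as stacked bars with 2 replicates per group. HK2 takes 89.4% to 98.2% of hexokinase in the parental and DMSO libraries and 14.9% to 43.2% in the resistant ones, and PFKP takes 34.7% to 50.4% of phosphofructokinase in the resistant Hep3B libraries.

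HKDC1 and HK1 are neighbors on chromosome 10 and are transcribed in the same direction, with 2431 bases between the end of the one and the start of the other. The genes around them were read off as a description. Upstream, the mean level of VPS26A went from 63.3 CPM in Huh7 parental to 146 CPM in IR and 116 CPM in CR cells, and that of SUPV3L1 from 38.8 to 93.2 and 55.6 CPM. Downstream, TACR2 stayed under 0.08 CPM in every group, and TSPAN15 went from 13.9 to 44.0 and 74.9 CPM. In Hep3B, where resistant cells had much HKDC1 and hardly any HK1, VPS26A measured 87.1 CPM in parental, 90.0 CPM in IR and 112 CPM in CR cells, and TSPAN15 25.5, 66.6 and 55.8 CPM. Both hexokinase genes of this locus were thus above their parental level in the resistant cells of each line, HK1 in Hep3B at a few reads per library.

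Among the phosphofructokinases, PFKP had the largest log2 fold change in resistant Hep3B cells. In Huh7 its change was close to that of PFKM on the log2(CPM + 1) scale only. With edgeR the change of PFKP was 2.69 in Huh7-IR and 2.35 in Huh7-CR, against 1.74 and 1.71 for PFKM. PFKP (chromosome 10, 3108525 to 3179910), the platelet form, measured 1.08 and 0.46 CPM in Huh7 parental, 0.44 and 0.57 CPM in Huh7 DMSO, 7.08 and 4.18 CPM in Huh7-IR and 4.78 and 3.51 CPM in Huh7-CR libraries. In Hep3B it measured 0.67 and 0.41 CPM in parental, 0.13 and 0.26 CPM in DMSO, 41.3 and 33.8 CPM in IR and 49.0 and 45.7 CPM in CR libraries. All resistant libraries lay above all parental and DMSO libraries of their line. For IR and CR cells the log2 fold change was 1.90 and 1.55 in Huh7 and 4.64 and 4.98 in Hep3B, with an SE of 0.25. The group means were highest in Hep3B, CR before IR, followed by Huh7, IR before CR, and the libraries of Huh7-IR and Huh7-CR overlapped.

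PFKM (chromosome 12, 48498922 to 48540187), the muscle form, measured 11.7 and 6.99 CPM in Huh7 parental, 27.7 and 36.1 CPM in DMSO, 35.1 and 36.0 CPM in IR and 31.2 and 33.8 CPM in CR libraries. The resistant Huh7 libraries were above the parental ones, with log2 fold changes of 1.86 and 1.73 (SE 0.22), and within the range of the DMSO ones, whose own log2 fold change was 1.70. In Hep3B PFKM measured 12.9 and 13.4 CPM in parental, 24.9 and 26.0 CPM in DMSO, 10.1 and 13.1 CPM in IR and 20.8 and 26.7 CPM in CR libraries, so that IR overlapped the parental and CR the DMSO libraries. Its log2 fold change in Hep3B was -0.18 for IR, 0.80 for CR and 0.90 for DMSO cells.

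PFKL (chromosome 21, 45719934 to 45747259), the liver form, measured 29.8 and 20.6 CPM in Huh7 parental, 28.1 and 69.7 CPM in DMSO, 45.5 and 84.9 CPM in IR and 36.3 and 48.3 CPM in CR libraries. The liver form had 31.1 and 28.9 CPM in parental, 38.7 and 53.5 CPM in DMSO, 34.3 and 38.0 CPM in IR and 57.4 and 65.7 CPM in CR libraries of Hep3B. The resistant libraries lay above the parental ones in both lines but overlapped the DMSO ones, and the log2 fold changes of IR and CR cells were 1.29 and 0.73 in Huh7 and 0.26 and 1.01 in Hep3B (SE 0.37). Replicates of PFKL differed by 1.28 on the log2 scale in Huh7 DMSO and by 0.88 in Huh7-IR. Its longest protein-coding transcript has a GC content of 63.4%, the highest of the 9 members (50.5% to 63.4%), and the part of GC content in this spread was not tested.

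By share, PFKL made up 65.5% and 69.3% of phosphofructokinase mRNA in Huh7 parental, 44.8% and 60.7% in DMSO and 45.2% to 63.4% in the 4 resistant libraries, where PFKM made up 33.1% to 47.9% and PFKP 3.58% to 8.39%. The Hep3B parental libraries held 63.0% and 65.2% of PFKL and 33.2% and 36.0% of PFKM. In the resistant Hep3B libraries PFKP made up 34.7% to 50.4%, against 1.02% and 1.62% in parental and 0.21% and 0.35% in DMSO libraries, and PFKL fell to 36.4% to 43.5% and PFKM to 13.2% to 21.8%. The summed level of IR and CR cells was 3.07 and 2.32 times the parental level in Huh7 and 2.00 and 3.10 times in Hep3B. The DMSO libraries also had a larger sum, at 2.36 times the parental level in Huh7 and 1.66 times in Hep3B.

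Of the aldolases ALDOA and ALDOC, neither was high in the resistant cells of both lines. ALDOA (chromosome 16, 30075485 to 30081778), the widespread form, measured 753 and 529 CPM in Huh7 parental, 654 and 1093 CPM in DMSO, 324 and 567 CPM in IR and 409 and 476 CPM in CR libraries. Values in Hep3B were 309 and 460 CPM in parental, 444 and 652 CPM in DMSO, 367 and 392 CPM in IR and 422 and 579 CPM in CR libraries. Resistant and parental libraries overlapped in both lines. It took 93.0% to 95.8% of the mRNA of both aldolases in Huh7 parental and resistant libraries and 98.9% to 99.7% in those of Hep3B.

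ALDOC (chromosome 17, 26900133 to 26903966), known from the brain, measured 22.5 and 27.1 CPM in Huh7 parental, 13.9 and 17.1 CPM in IR and 18.6 and 24.6 CPM in CR libraries. In Hep3B it measured 2.33 and 3.49 CPM in parental, 1.30 and 2.06 CPM in IR and 1.28 and 1.09 CPM in CR libraries. The resistant Hep3B libraries were all below the parental ones, at log2 fold changes of -0.54 and -0.82 (SE 0.61), while the Huh7 libraries overlapped. The gene was highest in the DMSO libraries, with 36.6 and 231 CPM in Huh7 and 13.2 and 28.6 CPM in Hep3B. Its share of the mRNA of both there was 7.58% and 23.7% in Huh7 and 4.17% and 6.05% in Hep3B, against 4.19% and 6.99% and against 1.09% and 1.10% in the parental libraries.

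PKLR (chromosome 1, 155259084 to 155271229), the pyruvate kinase of the differentiated hepatocyte, was low in all cells. It had 7 and 9 reads in Huh7 parental, 32 and 227 reads in DMSO, 0 reads in both IR and 2 and 5 reads in CR libraries, where a count of 0 allows up to 3 reads and covers counting error only. In Hep3B it measured 1.09 and 0.63 CPM in parental, 5.13 and 11.9 CPM in DMSO, 0.47 and 0.70 CPM in IR and 0.20 and 0.91 CPM in CR libraries. The resistant libraries lay below the parental ones in Huh7 and overlapped them in Hep3B. The DMSO libraries were the highest of each line, and the PKLR share of pyruvate kinase mRNA was 1.92% and 4.19% in Hep3B DMSO against 0.20% and 0.42% in Hep3B parental cells.

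The rest of pyruvate kinase mRNA was PKM, the widespread form, which is not among the 9 members and was therefore tested. PKM (chromosome 15, 72491370 to 72524160) measured 2051 and 1822 CPM in Huh7 parental, 1265 and 1497 CPM in DMSO, 591 and 1050 CPM in IR and 881 and 1064 CPM in CR libraries. In Huh7 it fell by 1.29 in IR (SE 0.23, adjusted p = 0.00042) and by 1.00 in CR cells (adjusted p = 0.004) on the log2 scale (limma, Benjamini-Hochberg adjustment over all 15019 genes, as for every adjusted p here). Against the DMSO libraries the Huh7-CR change missed the threshold, at -0.51 with an adjusted p of 0.0919. In Hep3B it measured 707 and 842 CPM in parental, 741 and 793 CPM in IR and 578 and 672 CPM in CR libraries, with log2 fold changes of -0.01 and -0.31 that did not pass (adjusted p = 0.991 and 0.309). The summed pyruvate kinase level of IR and CR cells was thus 0.42 and 0.50 times the parental level in Huh7 and 0.99 and 0.81 times in Hep3B.

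High ALDOC and PKLR in DMSO cells came with other differences between these libraries. The log2 fold change against parental cells was 1.86 in Huh7 and 2.41 in Hep3B for ALDOC (SE 0.61), and 1.16 and 2.27 for PKLR (SE 0.43). In both lines DMSO replicate 2 was above replicate 1 for both genes. A list of 9 hypoxia-induced genes summed to 405 and 1147 CPM in replicates 1 and 2 of Huh7 DMSO and to 250 and 535 CPM in those of Hep3B DMSO, against 306 to 370 CPM in Huh7 parental and 237 and 247 CPM in Hep3B parental libraries. The same sum was 415 to 620 CPM in resistant Huh7 and 568 to 593 CPM in resistant Hep3B libraries. Its genes did not move together in resistant Huh7. There VEGFA measured 124 to 253 CPM against 82.2 and 73.1 CPM in parental libraries. NDRG1 measured 18.4 to 47.5 CPM against 101 and 59.0 CPM. In resistant Hep3B both were above parental, with VEGFA at 225 to 368 CPM against 71.3 and 57.4 CPM. The carbohydrate response factor MLXIPL, chosen after its values were seen, measured 3.58 and 3.53 CPM in Hep3B parental and 17.5 and 24.8 CPM in DMSO libraries and was at a log2 fold change of 2.26 (adjusted p = 0.0405, limma). This call was lost with edgeR (adjusted p = 0.173), with a pseudocount of 0.25 CPM (0.101), without the filter (0.0853) and without any of the 4 libraries in turn (0.134 to 0.332). In Huh7 it measured 0.09 and 0.03 CPM in parental and 0.41 and 3.58 CPM in DMSO libraries (adjusted p = 0.137). The part of hypoxia or of culture in these values was not tested.

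**Figure D3:**
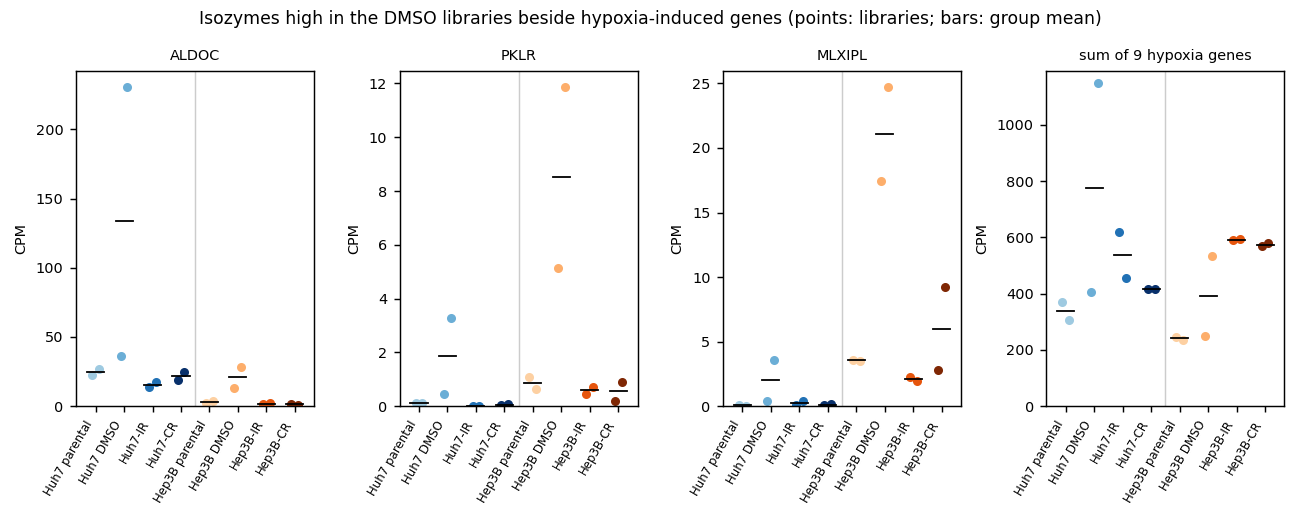
Levels in CPM (vertical axes, linear and different for each gene) of ALDOC, PKLR, MLXIPL and the sum of 9 hypoxia-induced genes in the 8 groups, where points are libraries and bars are group means. In the DMSO groups replicate 2 (right point) lies above replicate 1 in all 4 panels, and the hypoxia sum is above parental in the resistant Hep3B libraries.

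Counted over the members, the 4 resistant libraries of Huh7 all lay above both parental ones for 5 of 9 (HK1, HKDC1, PFKL, PFKM and PFKP) and below for 1 (PKLR), where 37.2% and 24.9% of all genes tested did so. In Hep3B they lay above for 4 of 9 (HK1, HKDC1, PFKL and PFKP) and below for 1 (ALDOC), against 32.4% and 22.0% of all genes. Since the members were named with these values known, nothing is read from the counts. When the DMSO libraries were added to the parental ones, HK1, HKDC1 and PFKP remained above in each line, PKLR below in Huh7 and ALDOC below in Hep3B. The share of all genes that did so was not computed, and nothing is read from this either. The parental lines themselves differed, as Hep3B had more HKDC1 (log2 difference 1.88, SE 0.38) and HK2 (1.01, SE 0.22) and less ALDOC (-2.73, SE 0.61) than Huh7.

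The size of several changes depended on the method. For PFKP the log2 fold change in IR and CR cells of Hep3B was 4.64 and 4.98 on the log2(CPM + 1) scale, 5.59 and 5.93 with a pseudocount of 0.25 CPM and 6.06 and 6.34 with edgeR, and for HK1 of Hep3B it was 0.24 and 0.23 on the first scale and 3.15 and 3.02 with edgeR, at 19 reads or fewer. Over all genes tested the median change was 0.19 in Huh7-IR and 0.11 in Hep3B-CR on the CPM scale and 0.04 and 0.02 after TMM scaling, so that changes of this size are within the shift between scalings. HK1, HKDC1 and PFKP kept a positive sign in all 4 resistant comparisons under each of 15 alternatives. ALDOA changed sign in Hep3B-IR and Hep3B-CR, and PFKL, PFKM and PKLR changed sign in some comparisons when the DMSO libraries were the reference or a replicate was left out.

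Genes with the most similar pattern were ranked by Pearson's correlation of log2(CPM + 1) over the 16 libraries, which share their 8 groups and thus are not independent points. They were OAS2 (0.99) and NTRK2 (0.99) for HK1, LOC254896 (0.97) and ADCY3 (0.97) for HKDC1, and SLITRK6 (0.98) and SLC16A4 (0.97) for PFKP. For ALDOA they were GAPDH (0.92), the next but one enzyme of glycolysis, and the pseudogene PGAM1P5 (0.91). For ALDOC they were MVD (0.96) and MVK (0.95), both enzymes of the mevalonate pathway, and for PKLR the hepatic enzyme AGXT (0.97) and SYNE4 (0.97). For HK2, PFKL and PFKM they were H4C9 (0.94) and LYNX1 (0.93), ARHGEF1 (0.94) and MIB2 (0.94), and ALS2CL (0.88) and CRAT (0.87).

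The remaining genes of the pathway were taken from a list of 38 genes, of which 36 passed the filter and were tested. In Huh7-IR 9 rose and 11 fell, where 36.0% of all genes tested rose and 21.5% fell. In Huh7-CR 7 rose and 5 fell, against 24.5% and 16.8% of all genes. In Hep3B-IR 4 rose and 5 fell (18.3% and 13.7% of all genes), and in Hep3B-CR 2 rose and 7 fell (23.6% and 15.2%). On the log2 scale the 36 listed genes had a median change of -0.06 and -0.08 in IR and CR cells of Huh7 and -0.03 and 0.12 in those of Hep3B, where all genes tested had 0.19, 0.07, 0.06 and 0.11. The balance depends on the scaling, as TMM factors gave 7 higher and 9 lower genes of the list in Huh7-CR and quantile normalization 4 and 6. The share of higher genes among all calls in Huh7-CR went from 59.2% to 51.7% with TMM factors and to 48.3% after quantile normalization. In Huh7-IR it went from 62.5% to 49.4% after quantile normalization. Without Huh7 parental replicate 1 the Huh7-CR count was 7 genes in place of 12, and without Hep3B-CR replicate 2 the Hep3B-CR count was 5 in place of 9. Nothing particular to the pathway is read from these counts.

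Of the 11 genes of other steps, 2 rose and 3 fell in Huh7-IR, 1 rose and 1 fell in Huh7-CR, 1 rose and 3 fell in Hep3B-IR, and 2 fell in Hep3B-CR. In the same order 36.0%, 24.5%, 18.3% and 23.6% of all genes tested rose and 21.5%, 16.8%, 13.7% and 15.2% fell. Nothing is read from these counts. PGAM2, the muscle form of phosphoglycerate mutase, had the lowest mean change. It measured 6.15 and 6.53 CPM in Hep3B parental, 0.52 and 0.90 CPM in IR and 0.89 and 0.61 CPM in CR libraries and fell by 2.11 and 2.07 on the log2 scale (SE 0.15, adjusted p = 1.1e-06 and 1.35e-06, limma), while it was under 0.1 CPM in all Huh7 libraries. PGAM2 thus passed the filter only through the parental and DMSO libraries of Hep3B, in which it is high. Its calls are therefore given as a description. PGAM1, the widespread form, fell in Huh7-IR by 0.52 (adjusted p = 0.0103), a call that was lost without Huh7-IR replicate 1 (adjusted p = 0.0872) or without Huh7 parental replicate 1 (0.053). The largest mean change was in ENO2, the neuronal enolase, which passed in Huh7-IR at 3.90 (SE 1.08, adjusted p = 0.00835) and lost the call without Huh7-IR replicate 1 (0.069) or Huh7 parental replicate 2 (0.0607). Its level in the Huh7 DMSO libraries was 1.61 and 70.5 CPM, and against these the ENO2 change in Huh7-IR was 1.54 (adjusted p = 0.248). ENO1, the widespread enolase, had log2 fold changes of -0.37 to 0.30 that did not pass, and ENO3, the muscle form, fell in Hep3B-IR by 1.62 (adjusted p = 0.0134, and 0.0969 and 0.0784 without Hep3B parental replicate 2 and Hep3B-IR replicate 2).

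The lactate dehydrogenase pair, chosen after its values were seen, passed in opposite directions in both IR comparisons, while in each CR comparison 1 of the 2 passed. LDHA measured 1738 and 1885 CPM in Huh7 parental, 785 and 887 CPM in IR and 1121 and 1372 CPM in CR libraries, and 501 and 629 CPM in Hep3B parental, 257 and 317 CPM in IR and 347 and 379 CPM in CR libraries. It fell in Huh7-IR (adjusted p = 0.000838), where its libraries did not overlap the parental ones, and it fell by 0.97 in Hep3B-IR (0.00453) and by 0.63 in Hep3B-CR (0.036) on the log2 scale, and was at -0.55 in Huh7-CR (adjusted p = 0.0603, limma). LDHB was at or below 1.67 CPM in all libraries and reached 1 CPM only in resistant ones. It thus passed the filter through groups in which it was then called higher, so that its calls are given as a description. LDHB rose by 0.85 in Huh7-IR (adjusted p = 0.00106), 0.53 in Huh7-CR (0.0248) and 0.72 in Hep3B-IR (0.00672). For Hep3B-CR the LDHB change was 0.15 (adjusted p = 0.53). Quantile normalization ended the LDHB calls of CR cells in Huh7 (adjusted p = 0.129) and of IR cells in Hep3B (0.07), and the DMSO reference the former (0.0593). The LDHA call in Hep3B-IR was lost without Hep3B parental replicate 2 (0.0551) or Hep3B-IR replicate 1 (0.0521), and that in Hep3B-CR without Hep3B parental replicate 2 (0.234) or either Hep3B-CR replicate (0.156 and 0.0878) and without the filter on low values (0.0773). The LDHB call in Huh7-CR was lost without Huh7 parental replicate 2 (0.158) or Huh7-CR replicate 2 (0.255).

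**Figure D4:**
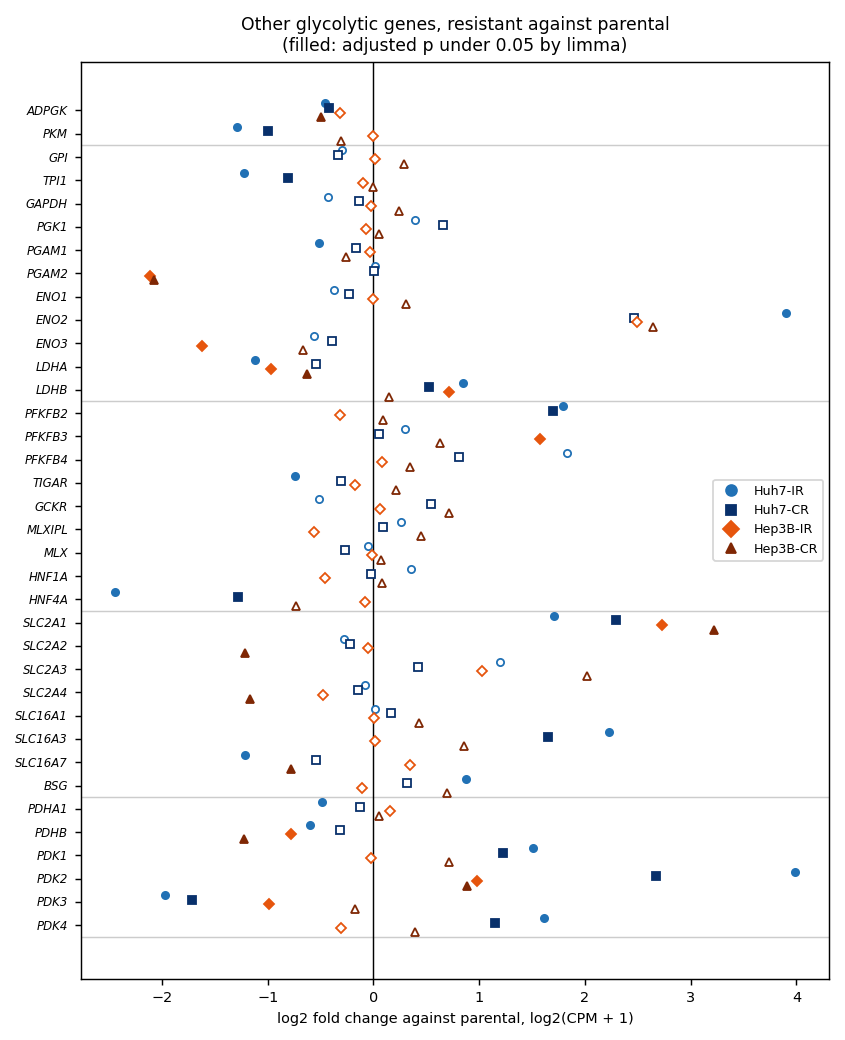
Log2 fold change on the log2(CPM + 1) scale (horizontal axis) of the 36 tested genes of the glycolysis list in the 4 resistant lines against their parental cells, where filled symbols mark an adjusted p under 0.05 by limma and gray lines separate the 5 parts of the list. SLC2A1 is higher in all 4 resistant lines and PGAM2 is lower in those of Hep3B, whereas most genes of the other steps lie near 0.

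Among 10 regulators of glycolysis, 9 were tested. PFKFB2, which makes the activator of phosphofructokinase, fructose 2,6-bisphosphate, measured 17.0 and 20.0 CPM in Huh7 parental, 78.6 and 56.3 CPM in IR and 65.0 and 59.6 CPM in CR libraries and rose by 1.79 and 1.70 (SE 0.20, adjusted p = 1.5e-05 and 3.95e-05, limma). In Hep3B parental cells it was already at 71.3 and 69.2 CPM, and the log2 fold changes of -0.32 and 0.09 did not pass. HNF4A, the transcription factor of hepatocyte genes including PKLR, measured 232 and 203 CPM in Huh7 parental, 23.7 and 63.8 CPM in IR and 72.1 and 110 CPM in CR libraries and fell by 2.45 and 1.28 (SE 0.34, adjusted p = 7.86e-05 and 0.00985). The HNF4A call in Huh7-CR was lost without Huh7-CR replicate 1 (adjusted p = 0.101) or Huh7 parental replicate 1 (0.0595). In Hep3B its log2 fold changes were -0.08 and -0.73 (adjusted p = 0.901 and 0.109).

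Of 8 transporters, 3 rose and 1 fell in Huh7-IR, 2 rose in Huh7-CR, 1 rose in Hep3B-IR, and 1 rose and 3 fell in Hep3B-CR. Of all genes tested, 36.0%, 24.5%, 18.3% and 23.6% rose and 21.5%, 16.8%, 13.7% and 15.2% fell in the same order. Nothing is read from these counts of transporters. SLC2A1, the widespread glucose transporter, passed in all 4 comparisons at log2 fold changes of 1.71 to 3.22. SLC16A7, a transporter of pyruvate and lactate, fell by 1.22 in Huh7-IR (adjusted p = 0.00135, limma) and by 0.78 in Hep3B-CR (0.0279), the latter lost without Hep3B-CR replicate 1 (0.167), without either Hep3B parental replicate (0.116 and 0.0877) and without the filter (0.0572). In the pyruvate dehydrogenase part, which holds the enzyme that carries pyruvate into mitochondrial oxidation and the kinases that inhibit it, PDK2 passed in all 4 comparisons. PDK2 measured 0.65 and 0.32 CPM in Huh7 parental, 20.1 and 25.2 CPM in IR and 6.74 and 10.4 CPM in CR libraries, with increases of 3.99 and 2.67 (SE 0.23, adjusted p = 1.11e-07 and 4.13e-06). In Hep3B it rose by 0.98 and 0.88 (adjusted p = 0.00698 and 0.0107), and each call was lost against the DMSO libraries (adjusted p = 0.0822 and 0.146) and without Hep3B parental replicate 2 (0.0545 and 0.0711). The PDK2 calls were also lost without Hep3B-IR replicate 1 (0.0886) and without Hep3B-CR replicate 2 (0.0644), respectively. PDK3 fell by 1.97 and 1.71 in IR and CR cells of Huh7 and by 0.99 in Hep3B-IR (SE 0.17, adjusted p = 2.24e-06, 1.15e-05 and 0.000943), and in Hep3B-CR it was at -0.17 (0.465).

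ADPGK, which phosphorylates glucose with ADP and lies outside the hexokinase family, stood at 62.3 to 98.4 CPM in all libraries and fell by 0.46 in Huh7-IR, 0.42 in Huh7-CR and 0.50 in Hep3B-CR (SE 0.13, adjusted p = 0.00962, 0.0223 and 0.0096, limma). Against the DMSO libraries the ADPGK changes in Huh7-IR and Hep3B-CR were -0.01 (adjusted p = 0.947) and -0.34 (0.0579). The ADPGK calls were also lost without Huh7 parental replicate 1 in both Huh7 comparisons (adjusted p = 0.0859 and 0.161), without Huh7-IR replicate 1 in Huh7-IR (0.0552), without either Huh7-CR replicate in Huh7-CR (0.0935 and 0.082), and without Hep3B parental replicate 1 (0.07) or Hep3B-CR replicate 2 (0.0532) in Hep3B-CR. In a fit of each line alone the Huh7-CR calls of ADPGK (adjusted p = 0.0783), LDHB (0.0777) and HNF4A (0.065) and the Huh7-IR calls of ENO2 (0.0567) and PGAM1 (0.0546) were lost.

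Between DMSO and parental cells 3 of the 36 genes rose and 0 fell by limma in each line, where 3.60% and 1.58% of all genes did in Huh7 and 1.11% and 0.533% in Hep3B. At an unadjusted p under 0.05, 13 rose and 2 fell in Huh7 and 7 rose and 0 fell in Hep3B, while edgeR called 6 rising and 0 falling genes in Huh7 and 0 in Hep3B, and DESeq2 11 and 1 in Huh7 and 2 and 0 in Hep3B. The shares of all genes above hold for the adjusted limma calls only and cannot be set beside these other counts. Nothing is read from any of these DMSO counts. The Huh7 count rests on single libraries, as it was 14 without Huh7 DMSO replicate 1, 0 without Huh7 DMSO replicate 2 or Huh7 parental replicate 2, and 1 without Huh7 parental replicate 1, and the Hep3B count was 1 without any of its 4 libraries in turn. Between the parental lines 9 genes were higher and 8 lower in Hep3B, where 27.8% and 22.5% of all genes were. For 10 of the 36 genes the resistant change differed between the lines by the interaction contrast, 5 in each direction, against 14.2% and 17.4% of all genes, and this count was 5 without Huh7 parental replicate 1 or Hep3B parental replicate 1 and 18 in a fit without the DMSO libraries, which was added after the data had been seen.

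Some reads cannot be assigned with certainty, because the counting is not stated to use strand. In the GENCODE annotation on GRCh37, PFKM overlaps SENP1 and PKLR overlaps HCN3 on the opposite strand, and HKDC1 overlaps 2 opposite noncoding RNA genes. ALDOC overlaps RSKR on the same strand, and ALDOA overlaps another protein-coding gene model of the same strand over most of its length.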

How the data were processed

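Poly(A)-selected RNA of 16 libraries was sequenced, and samples were grouped by their titles. The authors mapped reads to hg19 with STAR, counted unique hits over RefSeq exons and deposited CPM (counts scaled to the library total) for 26258 genes, of which 26111 IDs were matched to a symbol in the RefSeq table. All values were whole multiples of 1 read within 0.05 reads (100%), which gave the totals. Since CPM are not counts, log2(CPM + 1) was fitted with limma 3.58.1 (R 4.3.3, mean-variance trend) in one model of the 8 groups, keeping genes that reached 1 CPM in 2 or more libraries. Shares used CPM per kb of the union of exons (GENCODE on GRCh37). The fit was tested on simulated data. Alternatives were edgeR 4.0.16 and DESeq2 1.42.0 on recovered reads, TMM and quantile scaling, pseudocounts of 0.25 and 4 CPM, no filter, other references, a replicate block and leaving out replicates.

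The members, the lists and the tests were chosen with earlier results of these data known. Named outside the members were, in each of the 5 parts of the glycolysis list, the tested genes with the largest and the lowest mean change among those passing in at least 1 resistant comparison, all genes of the list of other isozymes (others of it are not reported here and entered no share) and the partners of a named enzyme. The replicate numbers did not pair the samples across all groups (correlation of deviations -0.22 to 0.44). The largest values were 0.44 between Huh7-IR and Huh7-CR and 0.41 between the DMSO groups of the 2 lines, so that a part shared by some groups is possible. The paper's methods state triplicates, where the labels hold 2 replicates, and both also differ in the sequencer and read length.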

Additional observations from a re-analysis of the deposited data

Results flagged for a closer look

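For 6 of the genes named outside the members the resistant change, averaged over IR and CR cells, differed between Hep3B and Huh7 by the interaction contrast of limma. Of all genes tested, 14.2% passed this contrast as higher and 17.4% as lower. Since most of the named genes were picked by their changes in the same resistant comparisons, nothing is read from their number. The log2 difference, Hep3B minus Huh7, was 0.99 for PKM (adjusted p = 0.0173), 1.46 for HNF4A (0.019) and 1.26 for PDK3 (0.000806). PKM and HNF4A passed as lower in Huh7-IR and Huh7-CR and in neither resistant Hep3B line, and PDK3 passed as lower in both Huh7 lines and in Hep3B-IR. The log2 difference was -1.86 for PFKFB2 (adjusted p = 0.000168) and -2.40 for PDK2 (7.93e-05). For PGAM2, which was above 1 CPM only in parental and DMSO cells of Hep3B, it was -2.10 (adjusted p = 6.07e-06). Since PGAM2 was hardly detected in Huh7, this difference follows from its fall in Hep3B and is given as a description. PFKFB2 rose in both resistant Huh7 lines and did not pass in Hep3B, and PDK2 rose in all 4. The calls of PKM and HNF4A were lost without Huh7 parental replicate 1 (adjusted p = 0.0724 and 0.0721) or Hep3B parental replicate 1 (0.0864 and 0.0669), and that of HNF4A also without Hep3B parental replicate 2 (0.056). That of PKM was lost after quantile normalization (0.0505) and against the DMSO libraries (0.12), and that of PGAM2 with edgeR (0.0648).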

How the results depend on the processing

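The replicate numbers did not pair the samples across all groups. With the replicate block the list counts were 20, 13, 9 and 9 genes for IR and CR cells of Huh7 and then of Hep3B, 4 and 3 in Huh7 and Hep3B DMSO, 18 between the parental lines and 11 for the difference between the lines, so that the block changed no count by over 1.5 times. A fit of each cell line alone gave 7 genes in Huh7-CR, 16 in Hep3B-CR and 0 in Huh7 DMSO, and the DMSO reference gave 15 in Hep3B-IR. In Huh7 DMSO the count was 1 with a pseudocount of 4 CPM, 1 without the filter, 6 with edgeR, 12 with DESeq2 and 14 at the thresholds of the study (unadjusted p under 0.05, log2 fold change of at least 0.58), and in Hep3B DMSO it was 1 with a pseudocount of 0.25 CPM, 0 with edgeR and 6 at those thresholds. A fit without the DMSO libraries, added after seeing the data, gave 18 genes for the difference between the lines. Leaving out 1 library gave 18 to 20 genes in Huh7-IR, 7 to 8 in Huh7-CR, 6 to 9 in Hep3B-IR, 5 to 6 in Hep3B-CR, 0 to 14 in Huh7 DMSO, 1 to 1 in Hep3B DMSO, 13 to 15 between the parental lines and 5 to 12 for the difference. The cause of these moves was not tested.

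The share of HKDC1 moved by 39.4, 34.8, 66.1 and 74.1 percentage points for IR and CR cells of Huh7 and then of Hep3B, the order used below. Without length correction the Huh7-IR, Huh7-CR and Hep3B-IR values were 30.7, 27.1 and 61.2, with the longest coding transcript the Huh7 values were 34.8 and 32.5, and leaving out 1 library gave 38.1 to 40.7, 33.4 to 36.1, 63.2 to 69.1 and 70.9 to 77.4. PFKP moved by 4.87 in Huh7-CR against the DMSO libraries and by 33.1 in Hep3B-CR with the longest coding transcript, and leaving out 1 library gave 1.35 to 6.15, 2.05 to 4.59, 40.5 to 49.1 and 33.4 to 39.1. Against the DMSO libraries ALDOC moved by -10.5, -8.98, -4.47 and -4.75 and PKLR by -0.340, -0.327, -2.85 and -2.83. Without length correction and with the longest coding transcript ALDOC of Hep3B moved by -0.313 and -0.298 (IR) and by -0.505 and -0.482 (CR), and PKLR by -0.00579 and -0.00516 in Huh7-IR. Leaving out 1 library gave -1.90 to 0.895, -0.348 to 2.45, -0.581 to -0.331 and -0.823 to -0.652 for ALDOC and -0.0179 to -0.0134, -0.00618 to 0.000971, -0.212 to 0.000824 and -0.217 to 0.0573 for PKLR. Against the DMSO libraries ADPGK in Huh7-CR reversed to 0.0286 and MLXIPL in Hep3B-CR to -1.81 (log2). Reads limit HK1 in Hep3B and PKLR in Huh7, which had under 20 and, outside the DMSO libraries, under 10 reads.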
